A study of Mus musculus with 3 samples.

Results

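Spleen macrophages of mice whose acute myeloid leukemia carried mM-CSF at a high level were compared with those from mice whose leukemia carried sM-CSF at a high level. The comparison used 2 of the study's 3 RNA sequencing libraries, 1 library a side, and 9574 of the 17111 genes listed in either library passed the minimum level described below. In every group, 800000 leukemia cells marked with GFP and BFP had been transplanted per mouse into C57BL/6J recipients aged 6 to 8 weeks, which were not irradiated. Macrophages that were GR1-, CD115int and F4/80+ were sorted from the spleen on day 18. The title of the control library names acute myeloid leukemia and neither mM-CSF nor sM-CSF. All 3 groups therefore carried leukemia, and the control is shown beside the other 2 as a reference level. The prefixes m and s are not explained in the labels, which also do not say how the leukemia cells were made to carry M-CSF, and do not say whether a library came from 1 mouse or a pool. With 1 library a group, no difference below has a replicate check or a test, and each describes these libraries only.

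Most tissue macrophages depend for survival and proliferation on the growth factor M-CSF, which is encoded by Csf1. It is made in a form held at the cell surface and in secreted forms, and all of them act through the receptor tyrosine kinase CSF1R, also known as CD115. In the spleen, CSF1R-dependent cells include the red pulp macrophages, which take up aged red cells and recycle their iron, as well as monocytes. Conventional dendritic cells depend mainly on another receptor of the same kinase family, FLT3.

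Both genes of the positive gates were well expressed in mM-CSF and sM-CSF. Csf1r (NCBI gene 12978), which encodes CD115, stood at 268 FPKM in control, 222 in mM-CSF and 149 in sM-CSF, and its share of counts was 1.49 times as high in mM-CSF as in sM-CSF (95% interval 1.44 to 1.55, counting error only). Adgre1 (gene 13733), the F4/80 gene, was nearly level, at 101, 67.5 and 65.5 FPKM in the same order. Both genes define the gate, so their levels check the label and are no finding. Ly6g, which encodes the main GR1 antigen, was below the minimum at 0.250, 1.45 and 0.360 FPKM. The ligand gene Csf1 itself was also below the minimum, at 2.44, 1.45 and 2.32 FPKM. Genes that define B cells, plasma cells and red cell precursors were abundant in all 3 libraries (summed over 14, 12 and 16 listed markers, 3869, 5059 and 4814 FPKM in mM-CSF and 3658, 1829.9 and 4164 FPKM in sM-CSF). In bulk samples, fewer cells of a type and less RNA per cell cannot be told apart.

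Each difference was log2(FPKM + 1) in mM-CSF minus log2(FPKM + 1) in sM-CSF. FPKM is a fragment count scaled to gene length and to the size of the library, and a gene needed at least 5 FPKM in the higher library. A size of 1 or more, which is 2-fold on this scale, was the rule for calling a gene higher or lower. By that rule 363 genes (3.79%) were higher and 836 (8.73%) lower in mM-CSF, 12.5% in either direction. Differences followed gene length, with Spearman's rho of -0.64 across the 9574 genes, which share both libraries and are not independent. By length quintile the median difference was 0.58 for the shortest genes and went through 0.20, -0.08 and -0.31 to -0.67 for the longest genes. The median length was 963 bases among the higher genes, 4434 among the lower ones and 2606 over all genes. The deposited counts, before conversion to FPKM, showed a like trend: the median log2 ratio of count shares went from 0.62 in the shortest to -0.73 in the longest quintile. With values rescaled to TPM the median over all genes shifted by -0.31, leaving 6.67% of calls on the higher side, and with median-of-ratios scaling it shifted by 0.10, giving 44.2%, against 30.3% here.

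Each gene was therefore set against genes of similar length. The length-adjusted difference is a gene's difference minus the median difference of the 200 genes nearest to it in length. Its rho with length was 0.03, its median 0.00 and its quartiles -0.29 and 0.26. After this adjustment 194 genes (2.03%) were higher and 429 (4.48%) lower, 6.51% in all, of which 110 and 323 were also past the rule without it. Of these calls 31.1% were on the higher side. In the shortest quintile the higher genes went from 271 to 50, and in the longest quintile the lower ones from 428 to 36. Genes just inside the minimum, at 5 to 6 FPKM in the higher library, had a median unadjusted difference of -0.22 and 14.4% called in either direction, and those just outside, at 4 to 5 FPKM, -0.29 and 14.7%. What produced the length trend was not tested, so the text below leads with the adjusted values. The control library was not part of the rule.

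**Figure D1:**
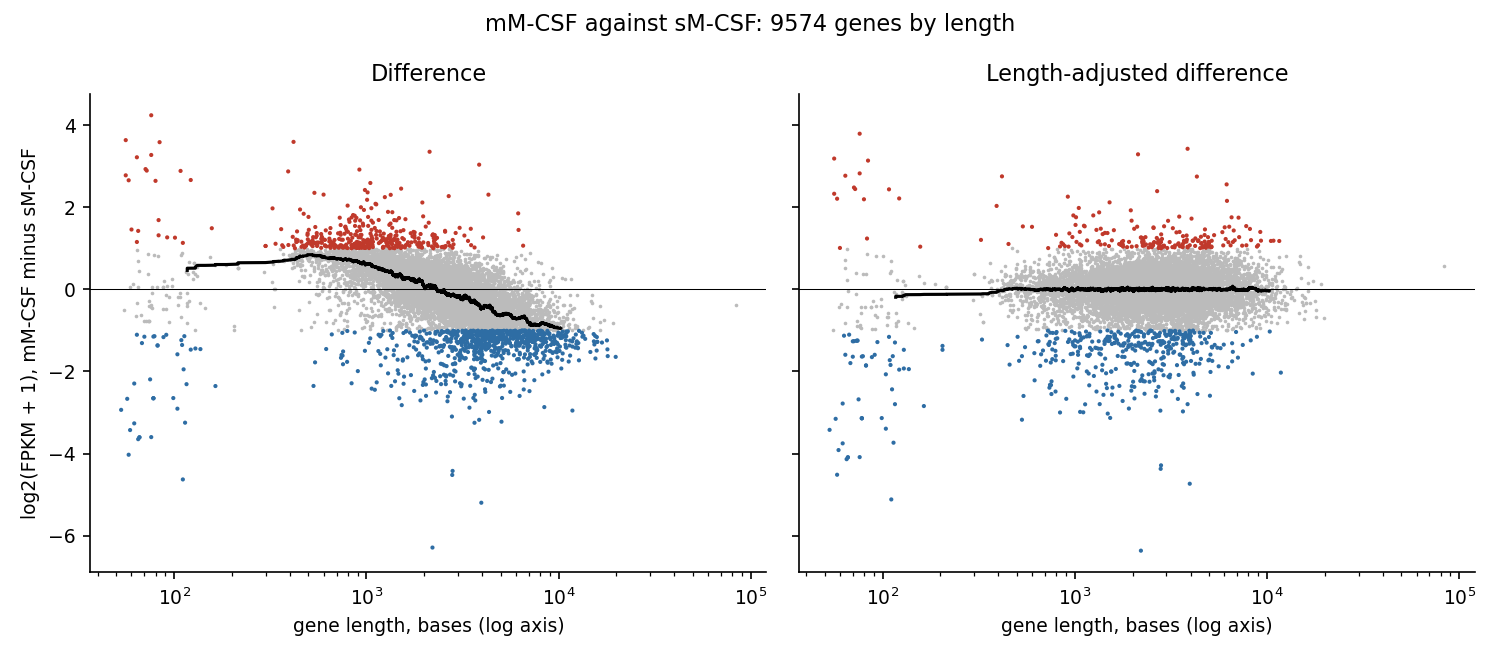
Difference of log2(FPKM + 1), mM-CSF minus sM-CSF, for 9574 genes (points) against gene length in bases on a log axis, before (left) and after (right) subtraction of the median of the 200 genes nearest in length. Red and blue points are past 1 and -1, and the black line is a running median; it falls with length on the left (rho -0.64) and runs near 0 on the right (rho 0.03).

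Receptor genes for the colony-stimulating factors went in different directions. Csf1r had an adjusted difference of 0.96. Csf2ra (gene 12982), the GM-CSF-specific alpha chain, was at 117, 42.2 and 104 FPKM in control, mM-CSF and sM-CSF (adjusted -1.47). Csf2rb, the beta chain shared by the receptors for GM-CSF, IL-3 and IL-5, was at 54.9, 13.1 and 41.9 FPKM (adjusted -1.0, just short of the rule), and Csf2rb2, the beta chain specific to IL-3, at 18.6, 3.15 and 14.0 (adjusted -1.31). The last pair are near-identical copies, so the split between them is uncertain, and the counts of all 3 genes were not whole. Il3ra, the alpha chain of the IL-3 receptor, was at 13.6, 42.7 and 17.9 FPKM (adjusted 0.86). Csf3r, which encodes the receptor for G-CSF, stood at 26.7, 11.8 and 15.8 FPKM (adjusted -0.07). Of the 6 list genes at the minimum, 0 were higher and 2 lower after the adjustment, with a median of -0.53.

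Downstream of CSF1R, most of the kinase, adaptor and phosphatase genes were close to genes of their own length. Of 23 signalling genes at the minimum, 0 were higher and 2 lower after the adjustment, and 18 lay below 0, with a median of -0.12 against -0.53 unadjusted. The 2 lower genes were Cbl and Dusp1. Cbl (gene 12402), the ubiquitin ligase that marks activated CSF1R for degradation, was at 36.1 FPKM in control, 1.15 in mM-CSF and 12.5 in sM-CSF (adjusted -2.01). Its share of counts, which is not adjusted for length, was 10.8 times as high in sM-CSF as in mM-CSF (8.08 to 14.6). Dusp1, a phosphatase that switches off MAP kinases, was at 111, 21.7 and 69.3 FPKM (adjusted -1.82). Other genes that attenuate the pathway did not pass the rule, with adjusted differences of -0.51 for the phosphatase gene Ptpn6, -0.49 for Cblb, -0.23 for Socs3, -0.18 for Dusp6, -0.10 for Inpp5d, -0.03 for Socs1 and 0.09 for Spred1.

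Genes of macrophage identity did not move as a block. Of 17 at the minimum, 2 were higher and 2 lower after the adjustment, with a median of 0.35. Fcgr1, the high-affinity receptor for IgG, was at 9.71, 26.4 and 12.2 FPKM in control, mM-CSF and sM-CSF (adjusted 1.15), and the transcription factor gene Maf at 25.9, 47.8 and 27.9 (adjusted 1.03). On the lower side were Itgam (gene 16409), the CD11b gene, at 41.3, 5.76 and 19.96 FPKM (adjusted -1.06), and the lysozyme gene Lyz2, at 784, 205 and 282 (adjusted -1.07). The counts of Itgam, Lyz2 and Maf were not whole, which can mean reads shared with other genes, so these values are uncertain. Mrc1, the mannose receptor gene, was at 42.5, 46.6 and 40.5 FPKM (adjusted 0.79). Cd68, a lysosomal glycoprotein gene of macrophages, was at 245, 284 and 214 FPKM (adjusted -0.04).

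Among 17 transcription factors of the lineage, 2 were higher, 2 lower, and the median was -0.01. Nr4a1 (gene 15370), which is needed for patrolling monocytes and is also an immediate early gene, was at 266, 21.7 and 94.8 FPKM (adjusted -2.05). Klf4, a factor of monocyte differentiation, was at 39.5, 3.89 and 13.3 FPKM (adjusted -1.39). The 2 higher genes were Maf and Tfec, the latter at 4.16, 8.96 and 3.02 FPKM (adjusted 1.09). Spic, which directs red pulp macrophage development, was at 114, 201 and 88.2 FPKM, past the rule only before the adjustment (1.18 and 0.74).

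Red pulp and iron-handling genes leaned higher in mM-CSF. Of 18 genes, all at the minimum, 3 were higher and 0 lower after the adjustment, 14 lay above 0 (49.7% of all genes did), and the median was 0.54. The 3 higher genes were Cd5l, a secreted scavenger protein of tissue macrophages, Trf, the plasma iron carrier transferrin, and Axl, a receptor for apoptotic cells. Trf (gene 22041) stood at 114 FPKM in control, 614 in mM-CSF and 257 in sM-CSF (adjusted 1.27). Cd5l was at 68.9, 119 and 40.7 FPKM (adjusted 1.47), so sM-CSF was the lowest of the 3 libraries. Axl was at 88.8, 157 and 101 FPKM (adjusted 1.27), with counts that were not whole. Blvra, which converts biliverdin to bilirubin after heme breakdown, was at 22.5, 58.8 and 24.6 FPKM (adjusted 0.88). Tfrc, the transferrin receptor, and Fth1, a ferritin subunit, were near genes of their length (adjusted -0.11 and -0.27).

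The C1q genes, a classical product of tissue macrophages that opens the complement cascade, were higher in mM-CSF. C1qa (gene 12259) was at 254, 1129 and 366 FPKM in control, mM-CSF and sM-CSF, and C1qb (gene 12260) at 271, 1231 and 385. Their shares of counts were 3.10 (2.98 to 3.22) and 3.21 (3.09 to 3.33) times as high in mM-CSF as in sM-CSF. The adjusted differences were 1.07 and 1.10, since short genes as a whole were higher in mM-CSF, and that of C1qa was 0.99 against genes matched on expression as well as length. The remaining chain gene C1qc followed at 312, 1085 and 397 FPKM (adjusted 0.86). C3, the central complement protein, had an adjusted difference of 1.04 from low levels of 15.5, 7.66 and 5.40 FPKM. In all, 3 of 7 complement genes at the minimum passed the rule, 0 on the lower side (median 0.87), and 9 listed members were below the minimum.

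Receptors for antibody and for dead cells were mixed. Of 9 Fc receptor genes, 2 were higher and 0 lower after the adjustment, and the median shrank from 0.83 to 0.08. The 2 were Fcgr1 and Fcgrt, the neonatal Fc receptor that rescues IgG from degradation, at 42.7, 122 and 49.3 FPKM (adjusted 1.08). Among 13 scavenger and uptake receptors, Stab2 (adjusted 1.47) and Axl were higher, and Havcr2 (adjusted -2.38) and Cd300lf (adjusted -1.09) lower. Stab2, a hyaluronan receptor that is also a marker of splenic sinus endothelium, was low, at 7.99, 11.4 and 7.02 FPKM. The other endothelial and stromal marker at the minimum, Pecam1, was at 57.5, 43.2 and 55.8 FPKM (adjusted -0.14).

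Of 28 lysosomal genes at the minimum, 3 were higher and 0 lower after the adjustment, and these 3 were among 8 cathepsin genes in the list. Ctsb (gene 13030), a cysteine cathepsin, was at 365, 483 and 268 FPKM in control, mM-CSF and sM-CSF (adjusted 1.46), and its share of counts was 1.81 times as high in mM-CSF as in sM-CSF (1.77 to 1.85). Ctsd, the main aspartic protease of the lysosome, was at 356, 747 and 338 FPKM (adjusted 1.04), and Ctsl at 9.22, 18.6 and 8.30 (adjusted 1.40). The other 5 cathepsin genes did not pass, with adjusted differences of -0.34 (Ctsh), -0.30 (Ctss), -0.02 (Ctsz), 0.27 (Ctsa) and 0.49 (Ctsc). The asparaginyl protease gene Lgmn was at 157, 259.8 and 130.3 FPKM (adjusted 0.79). The list as a whole had a median of 0.21, and its proton pump subunits lay between 0.10 and 0.23.

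Of the 19 genes for cholesterol efflux and lipid storage, 1 was higher and 1 lower. Lpl, which hydrolyses circulating triglycerides, was at 15.5, 44.7 and 18.04 FPKM (adjusted 1.72, counts not whole). Apoc2, the cofactor of that lipase, went the other way, at 30.4, 5.62 and 10.0 FPKM (adjusted -1.49). Nr1h3, the LXR alpha gene, which is needed for marginal zone macrophages and drives cholesterol efflux, was at 32.3, 53.9 and 24.8 FPKM (adjusted 0.91). Of 8 marginal zone genes, 3 were at the minimum: Nr1h3, the sialoadhesin gene Siglec1 (5.54, 7.92 and 8.45 FPKM, adjusted 0.61) and Cd209a, which was lower (given with the dendritic cell genes).

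Antioxidant genes showed how much the adjustment matters. Unadjusted, 8 of 21 glutathione, peroxidase and carbonyl reductase genes were higher (median 0.75), and after it 2 were (median 0.34). The 2 were Gpx3 (gene 14778), a secreted glutathione peroxidase, at 3.95, 29.6 and 4.60 FPKM (adjusted 2.12), and the carbonyl reductase gene Cbr2, at 3.19, 44.0 and 12.3 (adjusted 1.15). The share of counts of Gpx3 was 6.48 times as high in mM-CSF as in sM-CSF (4.94 to 8.62).

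**Figure D2:**
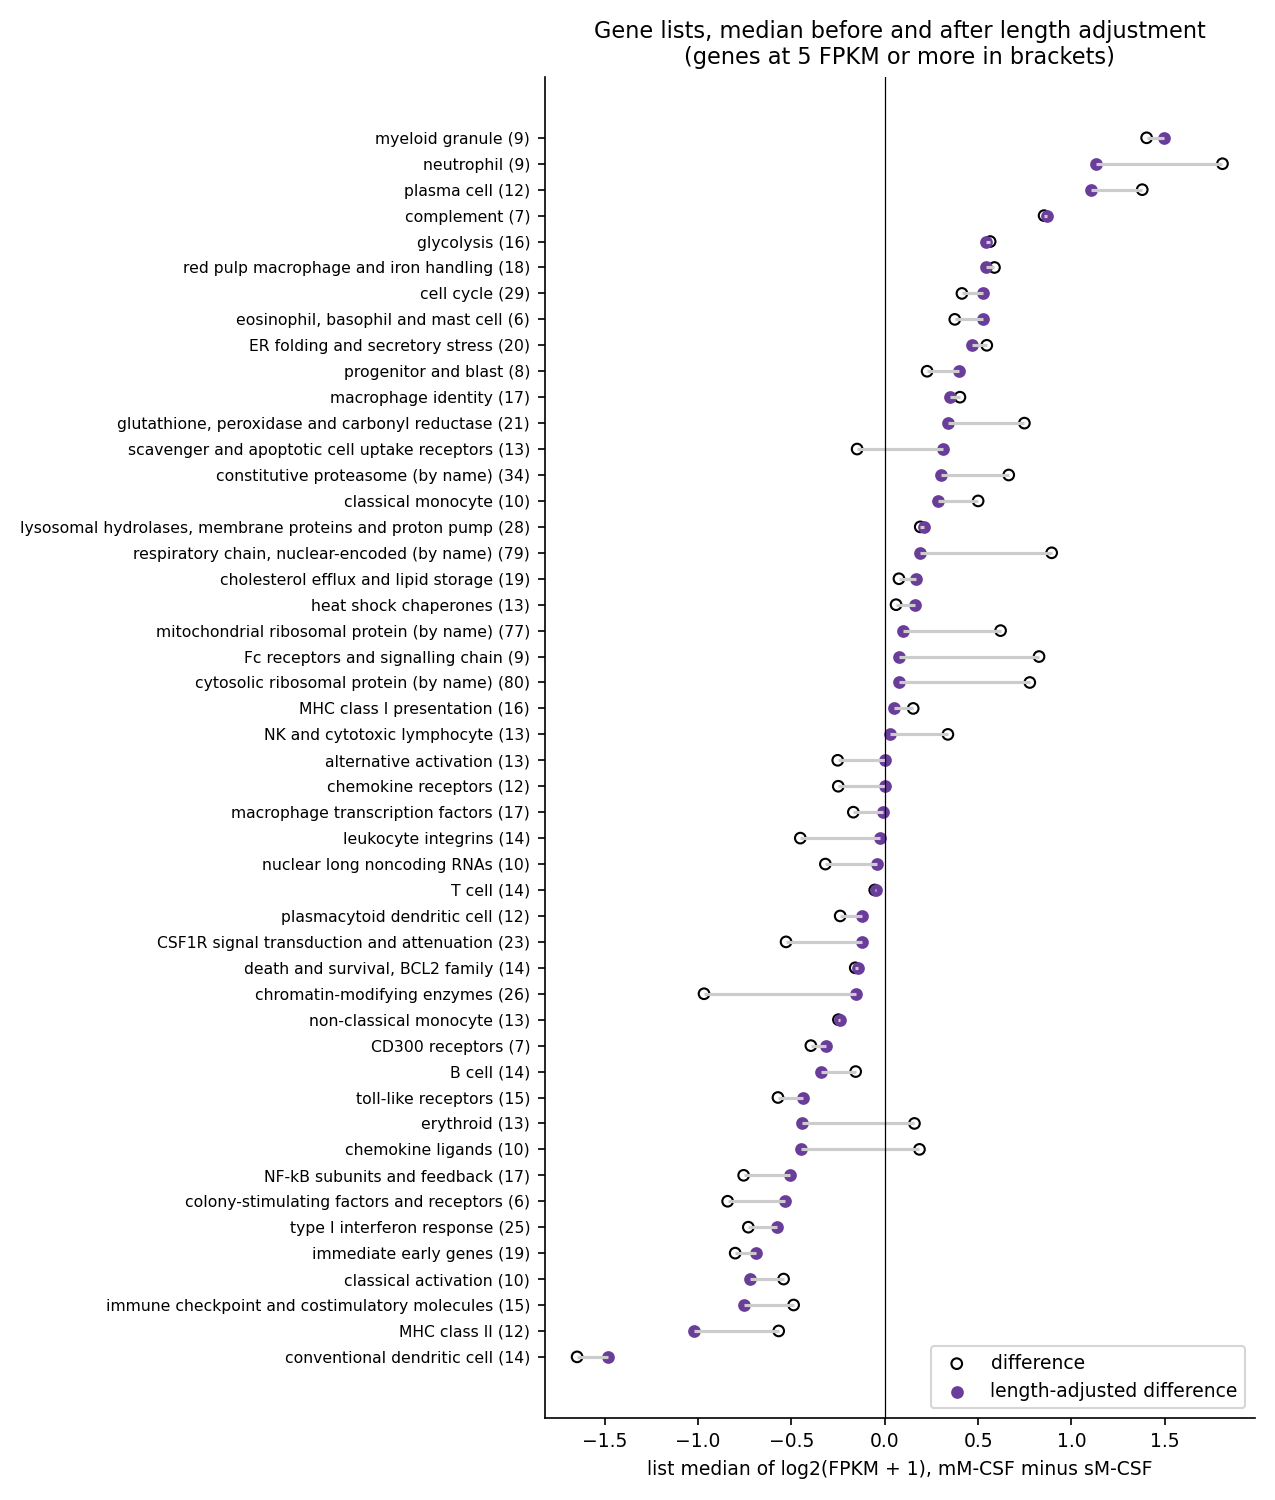
Median difference of log2(FPKM + 1), mM-CSF minus sM-CSF, of each gene list before (open circles) and after (filled circles) the length adjustment, with the number of genes at the minimum in brackets; lists of fewer than 6 such genes are not drawn. Conventional dendritic cell genes are lowest (-1.48 after the adjustment) and myeloid granule genes highest (1.49), and lists of short genes such as the ribosomal proteins move toward 0 when length is taken into account.

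No other list of the 51 had a median as low as that of conventional dendritic cell genes, -1.48 after the adjustment and -1.65 before it. Of 14 at the minimum, 10 were lower and 0 higher, and all 14 lay below 0. Zbtb46 (gene 72147), a transcription factor gene that marks this lineage, was at 20.1 FPKM in control, 1.46 in mM-CSF and 13.1 in sM-CSF (adjusted -2.54). Flt3 (gene 14255), the growth factor receptor of these cells, was at 46.0, 6.25 and 42.0 FPKM (adjusted -2.29). Itgax, the CD11c gene, was at 163, 28.1 and 133 FPKM (adjusted -1.74, counts not whole). In each case the control and sM-CSF libraries were nearer to each other than either was to mM-CSF, which was lowest.

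The lower genes included markers of both dendritic cell subsets. Cd209a (gene 170786), a lectin of monocyte-derived and type 2 dendritic cells, was at 24.97, 4.25 and 32.0 FPKM (adjusted -3.03), and its share of counts was 7.49 times as high in sM-CSF as in mM-CSF (5.63 to 10.1). Zfp366, the DC-SCRIPT transcription factor gene, was at 24.6, 0.170 and 9.02 FPKM (adjusted -2.95), with 4 counts in mM-CSF and 226 in sM-CSF. Clec9a, a receptor for dead cells on type 1 dendritic cells, was at 10.9, 2.12 and 9.06 FPKM (adjusted -1.54), and Batf3, which that subset needs, at 27.1, 23.3 and 30.6 (adjusted -1.12). Cd24a, which erythroid and B cells also express, was near genes of its length (adjusted -0.19). Over all 15 listed markers the summed level was 925 FPKM in control, 511 in mM-CSF and 851 in sM-CSF, and no marker was at 0 in either library. Plasmacytoid dendritic cell genes did not follow, at a median of -0.12 (0 of 12 lower, 1 higher). The higher gene was Tcf4, at 16.1, 24.8 and 18.5 FPKM. Its difference was 0.41 unadjusted and 1.27 adjusted, as genes of its length had a median of -0.87.

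MHC class II genes were lower in mM-CSF in every one of 12 cases after the adjustment, 6 of them past the rule and 0 in the other direction, with a median of -1.02. Without it 2 of the 12 passed, Ciita and H2-Eb2, and the median was -0.57. The adjustment shrank the differences of those 2 longer genes (unadjusted -1.95 and -1.53) and widened those of shorter ones such as H2-Aa (unadjusted -0.64). Ciita (gene 12265), the transactivator that switches the class II genes on, had the lowest value of the list, at 80.6, 16.4 and 66.2 FPKM (adjusted -1.35). H2-Aa (gene 14960), a class II alpha chain, was at 2546, 2091 and 3256 FPKM (adjusted -1.20), so its level in mM-CSF was nearer to the control than to sM-CSF. The peptide-editing gene H2-DMb2 was at 416, 403 and 605 FPKM (adjusted -1.31), and H2-Eb2 at 51.4, 19.4 and 57.9 (adjusted -1.32). Several class II counts were not whole, which can occur where genes resemble each other. Dendritic cells and B cells carry the class II genes too: the dendritic cell markers were lower as given above and 11 of 14 B cell markers lay below 0 (median -0.34). The part of either cell type in the class II values was not tested. MHC class I genes had 0 of 16 past the rule and a median of 0.05.

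Checkpoint and costimulatory genes had 3 of 15 lower and 0 higher, 10 below 0 and 5 above it, with a median of -0.75. Havcr2 (gene 171285), the TIM-3 gene, was at 41.0, 4.80 and 31.9 FPKM (adjusted -2.38). Cd274, which encodes PD-L1, was at 45.3, 7.33 and 30.8 FPKM (adjusted -1.66), and Icosl, the ICOS ligand gene, at 115, 53.5 and 131 (adjusted -1.14). The costimulatory gene Cd86 was level, at 45.2, 41.5 and 37.0 FPKM (adjusted 0.19), while Cd40 was at 28.6, 20.5 and 34.5 (adjusted -0.95).

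Immediate early genes are switched on within minutes of a stimulus. Of 19 at the minimum, 6 were lower and 0 higher after the adjustment, 16 lay below 0 and the median was -0.69. Egr1 (gene 13653), an early zinc finger factor gene, was at 176 FPKM in control, 27.0 in mM-CSF and 136 in sM-CSF (adjusted -2.13). Its share of counts was 5.00 times as high in sM-CSF as in mM-CSF (4.61 to 5.42). Atf3, a stress-induced repressor gene, was at 40.7, 3.75 and 21.7 FPKM (adjusted -2.36), and Jun, an AP-1 subunit, at 199.6, 48.1 and 116 (adjusted -1.02). Other AP-1 subunit genes were mixed, with Junb at 303, 163 and 276 FPKM (adjusted -0.94), Fos at 103, 55.0 and 61.4 (adjusted -0.26) and Jund at 139, 242 and 161 (adjusted 0.74). The early genes Myc and Egr2 were level with genes of their length (adjusted 0.00 and 0.01).

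The inducible HSP70 genes showed a wider gap than the other chaperones listed. Hspa1a (gene 193740) was at 92.3 FPKM in control, 0.920 in mM-CSF and 43.1 in sM-CSF (adjusted -4.37), and Hspa1b (gene 15511) at 107, 1.22 and 46.6 (adjusted -4.29). Their shares of counts were 47.2 (31.0 to 75.7) and 37.6 (26.2 to 56.0) times as high in sM-CSF as in mM-CSF. The 2 genes are near-identical, so the split of reads between them is uncertain, but both were low in mM-CSF. The other 11 of 13 heat shock genes at the minimum lay between -0.01 and 0.57, including the HSP90 gene Hsp90aa1 at 0.51 and Dnajb1, a further stress-inducible chaperone gene, at 0.22.

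NF-kB genes leaned lower. Of 17, all at the minimum, 4 were lower and 0 higher after the adjustment, 15 lay below 0 and the median was -0.51. Rel (gene 19696), a subunit that is itself inducible, was at 38.6, 2.69 and 16.3 FPKM (adjusted -2.14), and its share of counts was 6.05 times as high in sM-CSF as in mM-CSF (4.60 to 8.09). Relb, a subunit of the non-canonical pathway, was at 90.6, 42.0 and 106 FPKM (adjusted -1.42). Zfp36, which promotes decay of cytokine mRNA, was at 564, 169.8 and 454 FPKM (adjusted -1.64), and Birc3 at 72.4, 26.6 and 73.6 (adjusted -1.30). Rela and the inhibitor gene Nfkbia were close to genes of their length (adjusted -0.09 and -0.25).

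Genes of classical activation and toll-like receptor genes leaned the same way, with exceptions. Il1b (gene 16176), the interleukin-1 beta gene, was at 68.6, 6.52 and 37.4 FPKM (adjusted -2.80), and Tnf at 37.0, 10.3 and 20.7 (adjusted -1.22). These were the 2 lower genes among 10 at the minimum, with 0 higher and a median of -0.72. Of the 10, 6 lay below 0 and 4 above it. Among the latter was the cytokine gene Il1a, at 9.38, 6.53 and 4.76 FPKM (adjusted 0.28). Of 15 toll-like receptor genes, 3 were lower and 0 higher. Tlr9 (gene 81897), the receptor for unmethylated DNA in endosomes, was at 50.6, 5.41 and 31.7 FPKM (adjusted -2.09). Cd180, a toll-like receptor homolog that is strong on B cells, was at 121, 33.7 and 83.4 FPKM (adjusted -1.28), and Tlr6 at 5.54, 2.38 and 6.56 (adjusted -1.07). Tlr4, the receptor for bacterial lipopolysaccharide, stood on the other side of 0 at 0.99, from 8.76, 7.43 and 6.81 FPKM. Its count shares differed by less than counting error (ratio 1.10, 0.967 to 1.24), so its adjusted value reflects the low differences of the long genes it is set against.

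Interferon-response genes had 5 of 25 lower and 0 higher, with 22 below 0 and a median of -0.58. The 5 were Usp18, Mx1, Ifitm3, Oas2 and Oasl2. Usp18, which dampens interferon receptor signalling, was at 15.3, 5.17 and 13.9 FPKM (adjusted -1.51), and Ifitm3, an antiviral membrane protein gene, at 326, 135 and 191 (adjusted -1.26). The interferon-stimulated genes Isg20 and Bst2 had values of 0.16 and 0.11.

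Of 10 chemokine genes at the minimum, 3 were lower: Cxcl16 (adjusted -2.25), Ccl22 (adjusted -1.65) and Ccl3 (adjusted -1.04), with 0 higher. The list median was -0.45 adjusted but 0.19 unadjusted. Ccl3 was at 77.55, 32.09 and 40.47 FPKM in control, mM-CSF and sM-CSF. Its unadjusted difference was -0.33, as genes of its length had a median of 0.71. Cxcl16 (gene 66102), a membrane-anchored chemokine, was at 25.3, 3.74 and 22.5 FPKM. The level of Ccl22, a product of dendritic cells and alternatively activated macrophages, was 6.02, 2.31 and 8.15 FPKM. Among 12 chemokine receptors only Ccr6 passed, at 25.1, 5.89 and 26.02 FPKM (adjusted -2.30). Of 13 alternative activation genes, 2 were lower (Ccl22 and Klf4), 0 higher, and the median was 0.00. The dendritic cell homing receptor gene Ccr7 was at 115, 74.9 and 122 FPKM (adjusted -0.87).

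**Figure D3:**
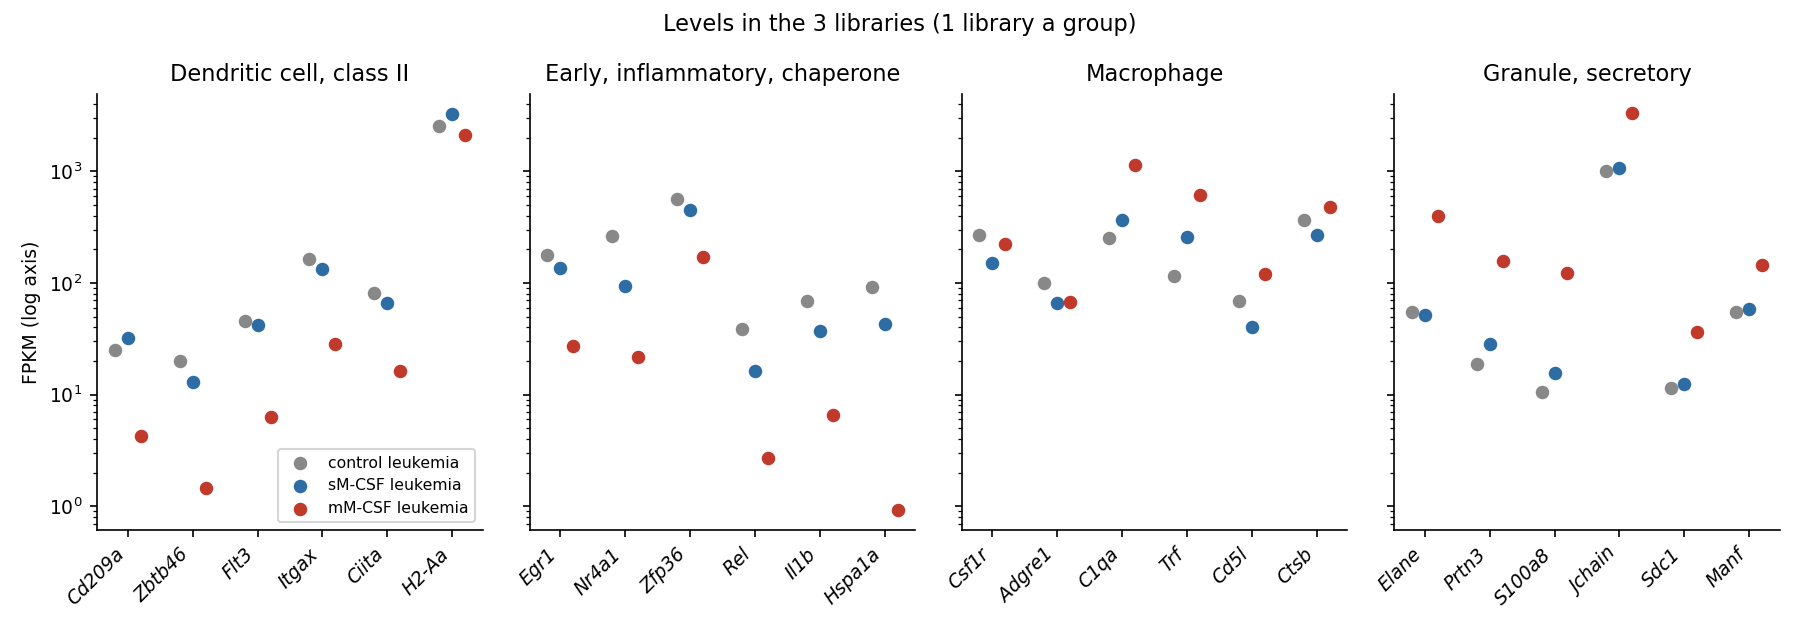
FPKM on a log axis of 24 genes in the control (gray), sM-CSF (blue) and mM-CSF (red) libraries, 1 point per library. The genes were picked after their values were seen to show each direction: mM-CSF is the lowest point for dendritic cell, class II, early and inflammatory genes (Hspa1a at 0.920) and the highest for C1qa, Trf, Cd5l, Ctsb and the granule and secretory genes (Elane at 397).

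Monocyte genes split. The 13 non-classical monocyte genes gave 3 lower and 0 higher calls (median -0.24), and both groups were below the control in sum (1745, 834 and 952 FPKM in control, mM-CSF and sM-CSF). Ace (gene 11421), an angiotensin-converting enzyme gene of these monocytes, was at 132, 4.09 and 26.5 FPKM (adjusted -2.03), and Eno3 at 70.5, 21.7 and 41.9 (adjusted -1.25). Other genes of the same cells did not follow, with Cd300e, an activating receptor gene, at 121, 54.0 and 37.3 FPKM (adjusted 0.41) and Fabp4 at 28.9, 16.5 and 5.76 (adjusted 0.61). Of 10 classical monocyte genes, 1 was higher and 0 lower. That gene was Hp, the hemoglobin-binding protein haptoglobin, at 19.1, 35.5 and 8.92 FPKM (adjusted 1.48).

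Within the CD300 family of lipid-binding receptors, 3 of 7 genes were lower and 0 higher. Cd300ld3 was at 90.1, 3.11 and 12.1 FPKM (adjusted -2.40), and Cd300ld at 60.0, 3.71 and 15.6 (adjusted -1.76). Counts of these similar genes were not whole, so their order is uncertain. Leukocyte integrin genes had 1 of 14 higher (Itgb5, a partner of the alpha V chain, adjusted 1.02) and 2 lower (Itgax and Itgam), with a median of -0.02. In the BCL2 family, 4 of 14 genes were lower and 0 higher. Pmaip1, the NOXA gene, which promotes cell death, was at 91.5, 10.5 and 69.6 FPKM (adjusted -2.48), whereas the other 3 were copies of the survival gene Bcl2a1, near-identical to each other (adjusted -1.73, -1.62 and -1.46).

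Granule protein genes of immature myeloid cells were the highest list, at a median of 1.49 after the adjustment (6 of 9 higher, 0 lower). Elane (gene 50701), the neutrophil elastase gene, was at 54.5 FPKM in control, 397 in mM-CSF and 51.7 in sM-CSF (adjusted 2.26). Its share of counts was 7.71 times as high in mM-CSF as in sM-CSF (6.96 to 8.56). Prtn3, the proteinase 3 gene, was at 18.8, 158 and 28.6 FPKM (adjusted 1.80), and Ctsg, the cathepsin G gene, at 18.8, 92.3 and 17.2 (adjusted 1.76). Mpo, the myeloperoxidase gene, was at 63.5, 166 and 62.3 FPKM (adjusted 1.49). For these proteases and for Mpo the control and sM-CSF libraries lay nearer to each other than either did to mM-CSF, which stood above both. The general granule matrix gene Srgn, which macrophages also make, was level (484, 537 and 461 FPKM, adjusted -0.42).

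Neutrophil markers of later stages leaned the same way, at a median of 1.13 (5 of 9 higher, 1 lower). S100a8 (gene 20201), a calcium-binding alarmin subunit gene, was at 10.7, 122 and 15.8 FPKM (adjusted 2.03), and its partner S100a9 at 13.8, 74.5 and 13.8 (adjusted 1.53). Camp, a granule peptide gene, was at 3.08, 22.3 and 3.71 FPKM (adjusted 1.52). Stfa1, a cystatin gene of neutrophils, was at 0, 11.1 and 0 FPKM, and with a floor of 3 counts in sM-CSF its share was at least 12.9-fold higher in mM-CSF. Its counts are shared with similar genes and were not whole. The lower gene was Mmp9, a gelatinase gene, at 3.84, 2.06 and 7.35 FPKM (adjusted -1.21). Summed over the 17 listed neutrophil markers, the level was 90.4, 317 and 89.8 FPKM. Of these, 2 (Stfa1 and Stfa2l1) were at 0 in sM-CSF. As a share of all counts the 17 markers stood closer together, at 0.0201%, 0.0269% and 0.0168%. The summed granule markers stood at 688, 1455 and 691 FPKM (0.0785%, 0.172% and 0.0814% of counts). In summed FPKM both lists were level between control and sM-CSF.

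Eosinophil, basophil and mast cell markers had 1 of 6 higher, the eosinophil granule gene Prg2, at 11.9, 88.5 and 25.6 FPKM (adjusted 1.04). Progenitor and blast markers had 2 of 8 lower, 0 higher, 6 above 0 and a median of 0.40. Kit (gene 16590), the stem cell factor receptor gene, was at 35.0, 6.02 and 34.7 FPKM (adjusted -1.74), and the other was Flt3. The most abundant member, Ly6a, the stem cell antigen 1 gene, which other cells also express, was at 162, 532 and 175 FPKM (adjusted 0.95, counts not whole). Cd34 and Gata2, which blasts and progenitors also express, lay at 0.44 and 0.49, and Hoxa9 and Meis1 were below the minimum in both libraries.

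After the adjustment all 12 of 12 plasma cell genes lay above 0, 7 of them past the rule and 0 lower. The median was 1.11, and 1.38 before the adjustment. Irf4 was below 0 without the adjustment, at 35.19, 28.81 and 35.15 FPKM in control, mM-CSF and sM-CSF (unadjusted -0.28, adjusted 0.30). Prdm1 was at 7.10, 6.14 and 5.25 FPKM (unadjusted 0.19, adjusted 0.81). Jchain (gene 16069), the immunoglobulin joining chain gene, was at 1008 FPKM in control, 3301 in mM-CSF and 1072 in sM-CSF (adjusted 1.53), and its share of counts was 3.09 times as high in mM-CSF as in sM-CSF (3.05 to 3.14). Sdc1, the CD138 gene of mature plasma cells, was at 11.5, 36.7 and 12.4 FPKM (adjusted 1.67). Xbp1 (gene 22433), the transcription factor that expands the secretory pathway, was at 163, 328 and 136 FPKM (adjusted 1.21). Summed over the list the levels were 1754, 5059 and 1829.9 FPKM, so sM-CSF was again near the control.

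Genes for folding and secretion in the endoplasmic reticulum leaned the same way, at a median of 0.47 (4 of 20 higher, 1 lower, 18 above 0). Manf (gene 74840), a secreted stress-induced factor gene, was at 54.5, 146 and 58.0 FPKM (adjusted 1.26). Creld2, an induced folding-factor gene, was at 61.4, 185 and 64.8 FPKM (adjusted 1.09), and Hsp90b1, the luminal HSP90 chaperone gene, at 431, 757 and 398 (adjusted 1.09). The lower gene was Ern1, the IRE1 sensor that splices the Xbp1 transcript, at 12.4, 1.62 and 6.46 FPKM (adjusted -1.05). Xbp1 is a member of both this list and the plasma cell list. Plasma cells make these folding genes in large amounts, their markers moved with this list as given above, and their part in it was not tested.

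The upstream regions of these genes were searched on both strands for the letters CCAAT, the box bound by NF-Y, and CCACG, which is found beside it in ER stress response elements bound by ATF6. In the RefSeq promoter table (build GRCm38.p6), CCAAT was in the 250 bases before the start in 33.8% of all 32851 windows, CCACG in 28.3% and both in 9.26%. Among the 7673 genes at the minimum with a window, the shares were 36.9%, 42.5% and 15.4%. Of the 28 ER folding or plasma cell genes among them, 19 held CCAAT (67.9%), 16 held CCACG (57.1%) and 14 held both (50%). The 14 had a median adjusted difference of 0.51 and the other genes of the 28 one of 0.59, so the median was no higher with both boxes. Of the 8 among these 28 that were higher past the rule, Sdc1, Derl3, Creld2 and Hsp90b1 held both boxes, and Jchain, Fkbp11, Txndc5 and Xbp1 held neither. Not every list gene past the rule was among the 28: Manf, for one, is missing from this split. The windows of the first 4 are shown to let the spacing of the boxes be seen, with every match in capitals (in reverse complement, ATTGG and CGTGG). They lie at chr12:8771146-8771395 on the plus strand (Sdc1), chr10:75893148-75893397 on the plus strand (Derl3), chr15:88819396-88819645 on the plus strand (Creld2) and chr10:86705445-86705694 on the minus strand (Hsp90b1), each upstream of the gene's start.
Sdc1: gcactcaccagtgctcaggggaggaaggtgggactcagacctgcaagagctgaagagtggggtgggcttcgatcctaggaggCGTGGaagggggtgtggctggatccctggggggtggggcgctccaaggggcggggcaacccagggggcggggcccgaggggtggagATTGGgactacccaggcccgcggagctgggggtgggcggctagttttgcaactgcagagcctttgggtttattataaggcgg
Derl3: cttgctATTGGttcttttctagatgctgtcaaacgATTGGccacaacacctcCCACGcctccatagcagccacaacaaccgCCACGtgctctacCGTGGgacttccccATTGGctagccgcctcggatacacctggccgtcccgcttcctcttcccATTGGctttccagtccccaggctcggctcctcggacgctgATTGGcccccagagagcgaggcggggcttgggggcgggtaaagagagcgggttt
Creld2: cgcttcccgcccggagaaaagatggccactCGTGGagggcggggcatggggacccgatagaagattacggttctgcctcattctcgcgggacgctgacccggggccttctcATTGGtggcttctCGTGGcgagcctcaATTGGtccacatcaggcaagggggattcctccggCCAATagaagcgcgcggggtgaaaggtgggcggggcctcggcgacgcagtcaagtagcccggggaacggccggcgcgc
Hsp90b1: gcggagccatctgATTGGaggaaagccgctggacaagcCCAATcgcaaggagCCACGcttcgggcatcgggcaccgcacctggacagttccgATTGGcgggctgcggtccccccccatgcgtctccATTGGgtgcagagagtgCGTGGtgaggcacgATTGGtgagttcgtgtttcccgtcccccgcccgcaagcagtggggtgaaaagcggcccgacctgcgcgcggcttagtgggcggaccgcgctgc
Derl3 and Hsp90b1 each held 5 copies of CCAAT. Both boxes were chosen after longer motifs had been searched in these windows and their results seen, which are not given here, and a match is a description, not a site of binding.

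**Figure D4:**
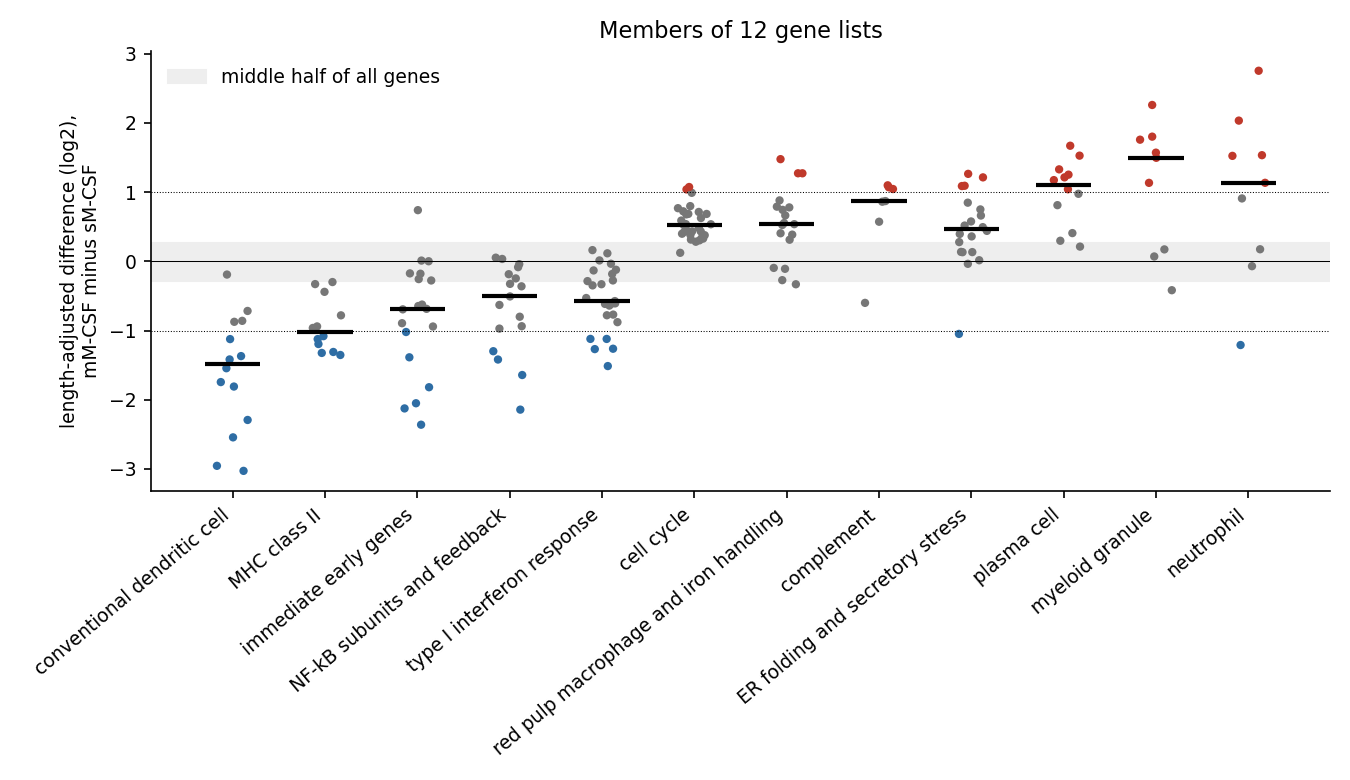
Length-adjusted difference (log2, mM-CSF minus sM-CSF) of each member at the minimum of 12 lists, picked after their values were seen, with a bar at the list median. Gray shading spans the quartiles of all genes (-0.29 to 0.26) and dotted lines mark 1 and -1; all 14 dendritic cell genes lie below 0 and all 12 plasma cell and 29 cell cycle genes above it.

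Other lymphoid and erythroid genes gave few calls. B cell genes had 0 of 14 past the rule in either direction and a median of -0.34, with the complement receptor gene Cr2 lowest, at 40.6, 16.7 and 56.7 FPKM (adjusted -1.0, just short of the rule). The summed B cell markers were 2037 FPKM in the control and above that in both mM-CSF (3869) and sM-CSF (3658). T cell genes had 1 of 14 lower, Cd4, at 62.8, 28.7 and 82.4 FPKM (adjusted -1.29). Il7r was at 17.9, 12.9 and 29.6 FPKM (unadjusted -1.13, adjusted -0.98, counts not whole). The T cell receptor chain gene Cd3e was at 28.8, 71.5 and 59.5 FPKM (adjusted -0.09). Cd4 is also expressed by dendritic cells, and their part in its value was not tested. NK cell genes had 0 of 13 past the rule and a median of 0.03. Erythroid genes had 0 of 13 past it and a median of -0.44, against 0.16 unadjusted. Of 10 megakaryocyte and platelet genes, 2 were at the minimum and 0 past the rule (Pf4, adjusted -0.02, and Itga2b, 0.96).

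Cell cycle genes differed by small amounts in one direction. All 29 at the minimum lay above 0 after the adjustment, 2 were past the rule, and the median was 0.52. The range was 0.12 to 1.07, so most members were within 2-fold. Cdk1, the mitotic kinase gene, was at 12.8, 18.2 and 9.45 FPKM (adjusted 1.04), and Cdc20, which triggers exit from mitosis, at 29.2, 48.1 and 20.9 (adjusted 0.99). The other gene past the rule was the kinetochore motor gene Cenpe, at 6.47, 5.09 and 4.31 FPKM, whose shares of counts were nearly level (ratio 1.19, 1.01 to 1.39). Mki67, a very long proliferation marker, had an unadjusted difference of -0.19 and an adjusted one of 0.72, from 69.2, 29.1 and 33.4 FPKM.

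Glycolysis genes had 14 of 16 above 0 and a median of 0.54, but 0 higher and 1 lower by the rule. Tpi1, the triose phosphate isomerase gene, was at 80.0, 145 and 68.8 FPKM (adjusted 0.80), and the myeloid hexokinase gene Hk3 at 17.9, 30.7 and 18.3 (adjusted 0.91). The lower gene was Pfkfb3, an inducible activator of glycolysis, at 42.6, 8.22 and 31.7 FPKM (adjusted -1.22).

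For lists of very short or very long genes the unadjusted values were mostly those of their length. Of 26 chromatin enzyme genes (median length 7841 bases), 12 were lower unadjusted and 0 after the adjustment, and the median went from -0.97 to -0.15. Tet2, a DNA demethylase gene, was at 17.6, 1.80 and 8.83 FPKM (-1.81 unadjusted, -0.95 adjusted). Cytosolic ribosomal protein genes (80 at the minimum, median length 709 bases) had a median of 0.78 unadjusted and 0.08 adjusted. The 79 nuclear-encoded respiratory chain genes went from 22 higher to 1 and from a median of 0.89 to 0.19, and the 77 mitochondrial ribosomal protein genes from a median of 0.62 to 0.10. Proteasome subunits kept more of theirs, 0.66 and 0.30, with 32 of 34 above 0. Nuclear long noncoding RNAs had 0 of 10 past the rule after the adjustment and a median of -0.04. The ribosomal, respiratory chain and proteasome lists, 4 in all, were drawn up by gene name after the data were seen.

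The genes with the lowest adjusted differences at 10 FPKM or more included several with little or no signal in mM-CSF. Pcsk1n (gene 30052), an inhibitor gene for a prohormone convertase, was at 0 in the control, 0.110 in mM-CSF and 85.8 FPKM in sM-CSF, so sM-CSF was the single high library. Its share of counts was 813 times as high in sM-CSF as in mM-CSF (225 to 6719.5), on 2 counts in mM-CSF and an estimate in sM-CSF that was not whole. Evi2 was at 32.6 FPKM in control, 0 in mM-CSF and 35.7 in sM-CSF, at least 408-fold lower in mM-CSF with a floor of 3 counts there. Its counts in the other libraries were not whole, and reads may have been assigned to overlapping genes, so this value is uncertain.

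Further low genes were Ppp1r14a, an inhibitor of myosin phosphatase (40.7, 7.84 and 44.2 FPKM, adjusted -3.18), the class I-like gene H2-M2 (26.6, 3.73 and 32.4 FPKM, adjusted -3.13) and the lectin receptor gene Clec4a4 (31.7, 5.27 and 33.2 FPKM, adjusted -3.00). Klri1, an NK-family lectin gene, was at 38.9, 5.74 and 31.9 FPKM (adjusted -3.00). Stra6l, which encodes a retinol-binding protein receptor, was at 22.0, 1.82 and 25.8 FPKM (adjusted -2.97), Gatad2b, a subunit of the NuRD complex, at 26.6, 1.70 and 16.6 (adjusted -2.90), and Mcemp1, a myeloid membrane protein gene, at 24.0, 5.00 and 27.9 (adjusted -2.80). Adam11, which encodes a surface protein of the disintegrin family, was at 19.7, 1.88 and 25.9 FPKM (adjusted -2.59). In these 8 genes the control was on the side of sM-CSF. Counts of H2-M2, Clec4a4, Klri1 and Adam11 were not whole.

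On the higher side, beside the granule, neutrophil and Gpx3 genes given above, were Chst1, a keratan sulfate sulfotransferase gene (7.28, 37.2 and 6.93 FPKM, adjusted 2.39, counts not whole), and Gstt1, a glutathione transferase gene (1.28, 10.9 and 0.980 FPKM, adjusted 1.98). Mef2b was at 3.16, 19.7 and 3.20 FPKM (adjusted 1.87) and Pbld1 at 0.590, 10.3 and 1.61 (adjusted 1.92, counts not whole). Bhlha15, the MIST1 gene, a factor of secretory cells that plasma cells also express, was at 6.68, 17.1 and 5.51 FPKM (adjusted 1.77, counts not whole). Prex2, an activator of Rac, was at 12.7, 41.0 and 19.1 FPKM (adjusted 1.75, counts not whole). For each of these 6 genes the control and sM-CSF libraries were the low ones.

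Counts were also not whole in at least 1 of the compared libraries for Csf3r, Cd300lf, Havcr2, Cd274, Birc3, Tlr6, Mx1, Oasl2, Ifitm3, Dnajb1, H2-Eb2, H2-DMb2, Ctsa, Ctsb, Ctsc, Ctsl, Pfkfb3 and Tcf4, so their values are less certain than those of genes with whole counts.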

How the data were processed

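Per the file headers, the deposited tables listed NCBI gene IDs, each with the gene's length, its expected count and its FPKM as the authors had computed them. RSEM and Bowtie2 2.2.5 are named in the submitters' processing notes with no role stated; the build, the annotation and any use of strand are not given in the sources used here. An expected count is an estimate and need not be whole (75.7% to 76.7% of listed counts were, within 0.005 reads). The estimated counts summed to 9.09e+06 in control, 8.57e+06 in mM-CSF and 8.94e+06 in sM-CSF, which puts 3 counts at 0.330, 0.350 and 0.335 CPM.

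The tables were joined on gene ID, a gene not listed was taken as 0, and gene length was the mean of the deposited lengths in both libraries. Symbols came from a RefSeq table (GRCm38.p6), and 54 of 17615 genes had none. Differences of log2(FPKM + 1) understate the change of low genes. Ratios of count shares carry exact conditional (Clopper-Pearson) 95% intervals, which cover counting error only. The 47 gene lists (682 of 689 genes listed in the tables, 74 of them in several lists), the members and the rules were chosen with earlier results of these data known, and 4 lists by gene name, the motifs and the alternative of whole counts only were added after the data were seen. Genes named were the 12 highest and 12 lowest by adjusted and the 6 and 6 by unadjusted difference at 10 FPKM or more, without predicted models, ribosomal protein, mitochondrial, small RNA and antigen receptor segment genes. To these came up to 4 members a list by size of the adjusted difference, and Csf1, Csf1r, Adgre1, Itgam, Mrc1, Ly6g and Kit. Other list members named were chosen after their values were seen. The scripts were tested on simulated data. Python 3.11.15, numpy 2.4.6, pandas 2.3.3, scipy 1.17.1 and matplotlib 3.10.9 were used.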

Additional observations from a re-analysis of the deposited data

How the results depend on the processing

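With 1 library a group, leaving out a replicate or fitting a count model was not possible. No paired analysis was possible because the labels give no replicate numbers and the result comes from no test.

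Counts moved with the pseudocount, the minimum and the size rule, the last 2 by construction. With a pseudocount of 5, 205 genes were higher and 332 lower, and 70 and 268 after the adjustment. TPM gave 115 higher and 1610 lower unadjusted. A minimum of 1 FPKM gave 316 and 693 adjusted calls; one of 20 FPKM gave 349 lower unadjusted, and 88 and 211 adjusted. The 3-fold rule gave 64 and 208, and 34 and 180 adjusted. Of 109 named genes past the rule after the adjustment, 83 stayed past it under each alternative that gave a value. Those that did not include C1qa (lowest 0.99), Axl (0.98), Ctsd (0.95), Ccl3, C3, Cdk1 and Cenpe. The macrophage identity genes Fcgr1 (smallest size 0.94), Maf (0.89), Itgam (-0.79) and Lyz2 (-0.98) also fell short under an alternative. So did the transcription factor genes Tfec (0.62) and Klf4 (-0.91).

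The adjusted median kept its sign in 38 of 51 lists. With only genes of whole counts, an alternative chosen after seeing the data, the median of the colony-stimulating factor list was 0.89 unadjusted and 0.91 adjusted, since Csf2ra, Csf2rb, Csf2rb2 and Csf3r drop out. At 20 FPKM the marginal zone list went to -1.08, endothelial and stromal to -0.19, and progenitor and blast to -0.82, on fewer genes. The adjusted median of the checkpoint and costimulatory list kept its sign but ranged from -0.81 to -0.10. Its unadjusted median went from -0.49 to 0.01 at 20 FPKM. Depth limits genes of few counts, as the intervals show.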

Other observations

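The deposited gene lengths are weighted by transcript and differ between libraries for genes with several transcripts. Of 9541 genes compared, 2527 had lengths that differed by 1 base or more between mM-CSF and sM-CSF, and 1854 of these (73.4%) were shorter in mM-CSF. A shortening of 10% or more was seen for 86 genes and a lengthening of that size for 19. Smarca2, a chromatin remodelling ATPase gene, had a mean transcript length of 2729 bases in mM-CSF, 3926 in sM-CSF and 5268 in the control. Txndc11, a thioredoxin-domain gene of the endoplasmic reticulum, had 2007 bases in mM-CSF and 2556 in sM-CSF, and Birc5, the survivin gene, 1068 and 1310. Marchf5, a mitochondrial ubiquitin ligase gene, went the other way, at 3803 bases in mM-CSF and 3165 in sM-CSF. Between sM-CSF and control, 1475 of 2512 differing genes (58.7%) were shorter in sM-CSF. The median of these differences was 0.42% between mM-CSF and sM-CSF, and their part in the length trend was not tested.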
